A study of Arabidopsis thaliana with 30 samples.

Results

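These data compare the transcriptome of Arabidopsis seedlings that carry only the catalytic part of DXO1 with that of wild type, in the absence of added abscisic acid (ABA). The comparison rests on 6 of the 30 mRNA-seq libraries of the series, chosen by the genotype and treatment in their labels: 3 libraries of the line labelled DXO1-C/dxo1 under mock and 3 of Col-0 under mock. Both groups were 5-day-old whole seedlings grown on MS medium with sucrose and kept for 3 h in liquid MS medium without ABA before harvest. The other 24 libraries are the same 2 genotypes with 50 µM ABA, and the *dxo1* mutant, *dxo1*/*NTE* and *rnmt1-3* under both treatments.

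WT is the accession Col-0. The line *dxo1*/*cDXO1* is the T-DNA insertion mutant *dxo1* with a transgene that drives the C-terminal catalytic domain from the *DXO1* promoter, so these seedlings lack the N-terminal extension (NTE) of the protein in every cell. The line *dxo1*/*NTE* carries the extension alone, from the same promoter, in the same mutant. *rnmt1-3* is a weak CRISPR allele of the cap methyltransferase gene. Which independent transformant was sequenced is not given in the sources used here, so effects of one insertion or one line cannot be told apart from those of the protein fragment. The study calls the 3 libraries of a group biological replicates.

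The 5′ end of a eukaryotic mRNA receives a guanosine cap, which a methyltransferase converts to the m7G cap that nuclear cap-binding proteins and the translation factor eIF4E recognise. A minor share of transcripts starts instead with NAD. Plant DXO1 removes NAD caps through its catalytic domain, while its plant-specific NTE binds RNMT1 and stimulates the methylation of the guanosine cap. In *dxo1*/*cDXO1* the NAD-removing domain is therefore present again and the part that stimulates RNMT1 is not.

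The 6 libraries held 17961410 to 20369354 counts, and 22385 to 22998 genes had at least 1 count in a given library. WT replicate 1 stood apart. Of 18773 genes at a level of 1 CPM or more (counts per 1000000 of the effective library size) in WT, 853 had under 0.5 times the level of both other WT libraries in replicate 1 and 130 had over 2-fold the level of both. For every other library of the 2 groups these numbers ran from 32 to 49 and from 14 to 84. The common dispersion of the fit, a squared coefficient of variation between replicates, fell from 0.0256 to 0.00782 without WT replicate 1, and each main count is therefore given with and without that library.

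Of 32833 genes in the table, 19941 passed the filter on low counts and were tested, and 4697 of them differed between *dxo1*/*cDXO1* and WT at an adjusted p under 0.05 (edgeR). Higher in *dxo1*/*cDXO1* were 2420 genes (12.1% of those tested), and lower were 2277 (11.4%). Most changes were small: the median absolute log2 fold change of the called genes was 0.69, and 820 of those higher and 438 of those lower passed a log2 fold change of 1. Beyond a log2 fold change of 2 lay 160 higher and 81 lower genes. Over all tested genes the median log2 fold change was -0.01. At the thresholds named in the methods of the study, an unadjusted p under 0.05 and a log2 fold change over 1, 1475 genes passed, of which 946 were higher.

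Without WT replicate 1 the test called 8120 genes, 4180 higher (20.6%) and 3940 lower (19.5%). All but 35 of the 4697 genes were among them, and none of the 4697 changed sign. Leaving out any one of the other 5 libraries lowered the counts, to 1228 higher without *dxo1*/*cDXO1* replicate 1 and to 879 lower without *dxo1*/*cDXO1* replicate 2. In all 6 such fits, 1076 genes stayed called as higher and 752 as lower. Counts of called members in every gene list below are to be read against the shares over all tested genes.

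**Figure D1:**
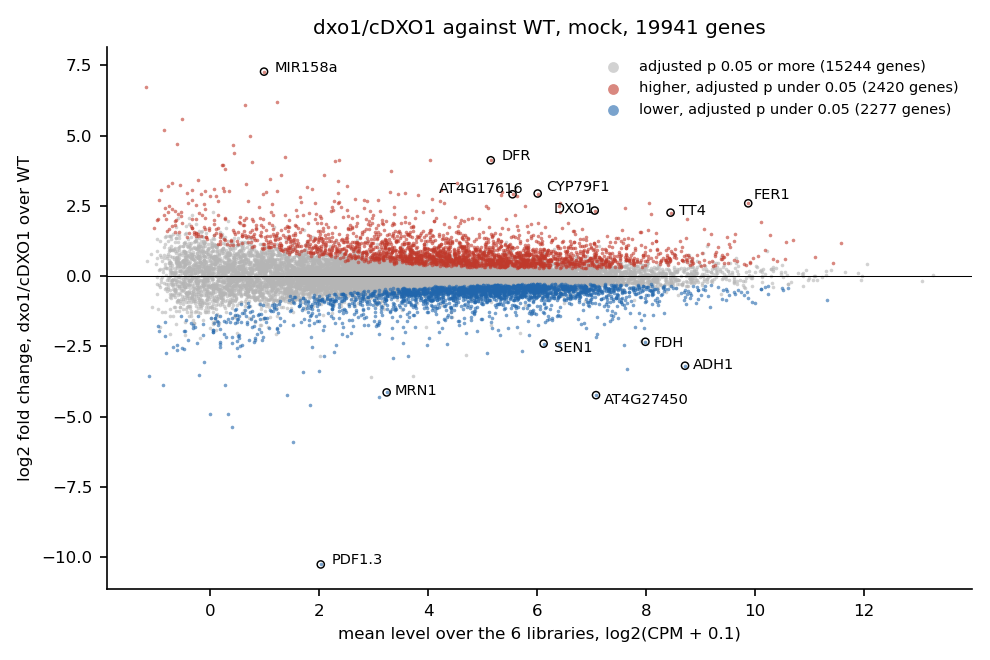
Each point is 1 of 19941 tested genes, with its mean level over the 6 mock libraries on the x axis (log2 of CPM plus 0.1) and its log2 fold change of *dxo1*/*cDXO1* over WT on the y axis. Red points are the 2420 genes called higher and blue points the 2277 called lower at an adjusted p under 0.05; the fitted value of *PDF1.3*, with no count in *dxo1*/*cDXO1*, depends on the prior count of the fit.

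Counts of *DXO1* itself were higher in the transgenic line. *DXO1* (AT4G17620, TAIR10.1 chromosome 4, 9821874 to 9825039, plus strand, 13 exons) stood at 49.7, 40.9 and 43.0 CPM in the WT libraries and at 219, 221 and 226 CPM in those of *dxo1*/*cDXO1*. The 2 groups were far apart, with a log2 fold change of 2.33 ± 0.105 (SE; adjusted p = 1.49e-05). Counts per gene do not show which part of the gene the reads came from. *RNMT1* (AT3G20650), whose product DXO1 stimulates, stood at 22.2, 17.7 and 17.7 CPM in WT and at 16.3, 16.1 and 17.3 CPM in *dxo1*/*cDXO1* (log2 fold change -0.20, adjusted p = 0.302).

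A second gene beside *DXO1* rose with it. AT4G17616, which encodes a pentatricopeptide repeat protein of the class that binds organellar RNA, lies on the same strand at 9819340 to 9821730 and ends 143 bases before the start of *DXO1*. Its level was 14.6, 9.07 and 9.54 CPM in WT and 77.8, 84.0 and 85.6 CPM in *dxo1*/*cDXO1*, a log2 fold change of 2.91 ± 0.177 (SE; adjusted p = 7.44e-05). In the *dxo1* mutant and *rnmt1-3* it averaged 9.64 and 9.19 CPM, and in *dxo1*/*NTE*, which carries the same promoter, 92.2 CPM. The promoter fragment of the constructs is longer than the gap between the genes and so takes in part of AT4G17616. Reads from the endogenous gene and from the transgene cannot be told apart in these counts. Within 250 kb of *DXO1*, 11 of 100 tested genes were higher and 12 lower, near the shares over all genes. The gap is shown on the strand of *DXO1* because it is all the endogenous sequence that separates the pair.
AT4G17616 to *DXO1*, chromosome 4, 9821731 to 9821873: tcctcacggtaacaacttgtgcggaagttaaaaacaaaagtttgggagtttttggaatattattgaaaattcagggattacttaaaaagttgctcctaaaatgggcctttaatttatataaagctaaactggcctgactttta

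Genes that were almost silent in WT and clearly transcribed in *dxo1*/*cDXO1* made up the largest rises. The transcript of *MIR158a* (AT3G10745, chromosome 3, 3366331 to 3366430), the precursor of a microRNA that plants use to silence matching mRNAs, stood at 0.0547, 0 and 0 CPM in WT and at 3.72, 4.15 and 3.38 CPM in *dxo1*/*cDXO1*. Against a floor of 3 counts per library that is at least 23.2-fold higher (adjusted p = 0.000157). *MIR156c* rose from 0.219, 0.313 and 0.165 CPM to 2.24, 1.73 and 1.87 CPM (log2 fold change 3.04, adjusted p = 0.00127). Its product restrains SPL transcription factors and holds plants in the juvenile phase. *MIR168a*, whose product acts on *AGO1* mRNA, rose by 1.78 on the log2 scale (adjusted p = 0.0185), and *MIR5642a* and *MIR850* fell by 1.46 and 1.00. These 5 genes were the called members among 19 microRNA genes tested out of 325 in the table. The 3 higher and 2 lower were near the 12.1% and 11.4% over all tested genes. *MIR158a* and *MIR156c* passed the filter only through their counts in *dxo1*/*cDXO1*. The call of *MIR168a* was lost without WT replicate 2, WT replicate 3 or *dxo1*/*cDXO1* replicate 3. Without WT replicate 1, 6 of 27 tested rose and 3 fell, against 20.6% and 19.5% over all tested genes. mRNA-seq reads cover precursor transcripts and not the mature microRNAs.

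The mature products annotated at the 3 loci that rose are printed 5′ to 3′ as the genome letters of TAIR10.1, with the seed, bases 2 to 8, in capitals. No seed is shared among them.
miR158a-3p: tCCCAAATgtagacaaagca
miR158a-5p: cTTTGTCTacaattttggaaa
miR156c-5p: tGACAGAAgagagtgagcac
miR156c-3p: gCTCACTGctctatctgtcaga
miR168a-5p: tCGCTTGGtgcaggtcgggaa
miR168a-3p: cCCGCCTTgcatcaactgaat

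Genes annotated by the domain DUF295, a domain of unknown function, were also among the largest rises. Among 93 annotated genes, 23 were tested, of which 8 rose and 1 fell, with a median log2 fold change of 0.84. Over all tested genes 12.1% were higher and 11.4% lower. Copies almost silent in WT passed the filter only through their counts in *dxo1*/*cDXO1*. The 23 therefore favour copies that rose, and so do the count and the median. The 8 rose in each of the 6 fits that left out a library. AT5G55270 stood at 0.0547, 0 and 0.11 CPM in WT and at 5.04, 4.00 and 4.19 CPM in *dxo1*/*cDXO1*, at least 27.3-fold higher. Next to each other on chromosome 5 lie AT5G53230 (21598848 to 21600008) and AT5G53240 (21601481 to 21602739). AT5G53240 went from 0.109, 0 and 0 CPM to 2.29, 2.91 and 3.38 CPM, at least 17.7-fold higher, and AT5G53230 from 0.0547, 0.313 and 0.384 CPM to 4.68, 4.54 and 5.05 CPM (log2 fold change 4.22, adjusted p = 0.000395). AT1G30170 was at least 6.65-fold and AT2G24255, with no count in WT, at least 4.26-fold higher. AT1G30170 shares 57 bases with another DUF295 gene on the opposite strand. The family is a set of similar copies and how reads that fit several copies were counted is not stated, so levels of single copies are uncertain. One listed member, *CAT4*, is an amino acid transporter gene that entered the list by its annotation and was not called. Untested copies were too low in both groups to pass the filter, and the counts above do not describe them.

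Other genes among the 10 largest rises were the receptor-like protein gene *RLP43*, at least 7.28-fold higher, and *NAC085*, a drought-related NAC transcription factor, with 0.328, 0 and 0 CPM in WT and 1.97 to 3.06 CPM in *dxo1*/*cDXO1*. The leucine-rich repeat protein gene AT1G47920 had 0, 0.261 and 0 CPM in WT and 2.75, 3.16 and 3.13 CPM in *dxo1*/*cDXO1*. AT4G36700, a cupin-fold protein gene, was at least 14.8-fold higher. *RLP43*, *NAC085*, AT1G47920 and AT4G36700 passed the filter only through their counts in *dxo1*/*cDXO1*, so they could be tested only as rises. The uncharacterized AT4G24700 rose from 0.602, 0.365 and 0.658 CPM to 10.4, 9.92 and 8.33 CPM (log2 fold change 4.14, adjusted p = 8.97e-05). It shares 101 bases with the far more abundant AT4G24690 on the other strand, which fell by 0.57.

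**Figure D2:**
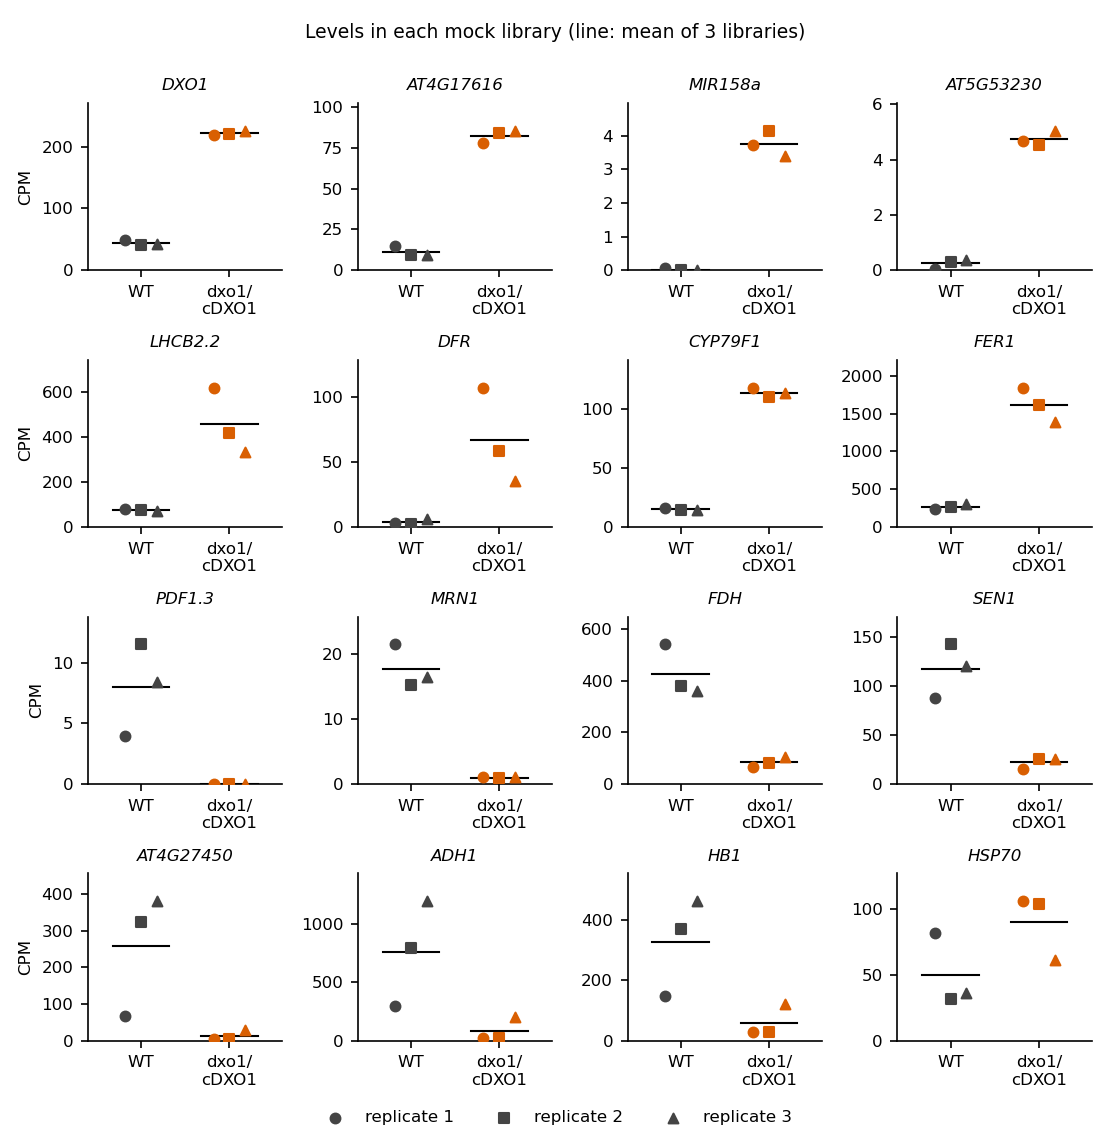
Levels in CPM of 16 genes in each mock library, WT in grey and *dxo1*/*cDXO1* in orange, with a symbol for each replicate number and a line at the mean of 3 libraries. The groups do not overlap except for *HSP70*, and WT replicate 1 is the lowest WT library for AT4G27450, *ADH1* and *HB1*.

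Many light-harvesting genes rose. The proteins bind chlorophyll in the antennae of both photosystems, and the early light-induced proteins (ELIPs) of the same fold protect the membrane under strong light. Of 22 tested members 13 rose and none fell, with a median log2 fold change of 0.53, and the number higher ran from 9 to 14 as each library in turn was left out. In whole seedlings, more cells of a type and more RNA per cell cannot be told apart. *LHCB2.2* stood at 79.6, 76.0 and 71.2 CPM in WT and at 618, 417 and 333 CPM in *dxo1*/*cDXO1* (log2 fold change 2.61 ± 0.213 SE, adjusted p = 0.000187). Every *dxo1*/*cDXO1* library lay far above the WT range, though the 3 differed among themselves. *LHCB2.3* rose from 14.8, 12.7 and 8.99 CPM to 120, 84.9 and 55.5 CPM (adjusted p = 0.000436), and *LHCB2.1* by 2.2 on the log2 scale. These 3 encode near-identical proteins of the mobile antenna of photosystem II, so reads may be shared between the copies, above all between *LHCB2.1* and *LHCB2.2*. *ELIP1* rose from 3.06, 2.34 and 2.74 CPM to 30.5, 19.3 and 13.5 CPM (log2 fold change 2.97, adjusted p = 0.000468), and *ELIP2* by 2.08.

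Within the antenna of photosystem II the copies gave unequal values, and here too reads may be shared between similar copies. In the *LHCB1* group, *CAB2* (2200, 1730 and 1800 CPM in WT; 4660, 4190 and 3890 CPM in *dxo1*/*cDXO1*) and *LHB1B1*, rose by 1.17 and 1.15. The most abundant copy, *CAB1*, was at 8810, 9840 and 8950 CPM in WT and at 8940, 7850 and 7490 CPM in *dxo1*/*cDXO1* (log2 fold change -0.17, adjusted p = 0.344). *LHCB3* and *LHCB4.2* rose by 1.21 and 1.66, whereas the minor antenna gene *LHCB5* gave a log2 fold change of 0.04 (adjusted p = 0.892). The summed level of the list was 29500, 27800 and 24800 CPM in WT and 37700, 32200 and 29800 CPM in *dxo1*/*cDXO1*.

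Of 31 photosystem core and Rubisco small-subunit genes tested, 3 rose and 1 fell (10 and 4 without WT replicate 1, and 1 and 1 without *dxo1*/*cDXO1* replicate 1). With all 6 libraries both shares lay below the 12.1% higher and 11.4% lower over all tested genes. *PSAD-2*, a subunit on the ferredoxin side of photosystem I, rose by 1.18, *NPQ4*, the sensor of non-photochemical quenching, rose by 0.63, and *RBCS2B* fell by 0.63. The third gene that rose, *PSAT*, encodes a phosphoserine aminotransferase and entered the list by its symbol alone. *RBCS1A* was at 8930, 10100 and 10100 CPM in WT and at 10700, 10200 and 9070 CPM in *dxo1*/*cDXO1* (adjusted p = 0.8). In chlorophyll synthesis 5 of 11 rose and 1 fell, and 3 rose without any one of WT replicates 2 and 3 and *dxo1*/*cDXO1* replicates 1 and 2. *CRD1*, for the diiron cyclase of the pathway, rose from 447, 482 and 455 CPM to 1930, 1820 and 1510 CPM (log2 fold change 1.94 ± 0.125 SE, adjusted p = 9.67e-05). *HEMA1* and *HEMA2* encode the first committed enzyme; the former rose by 0.80 and the latter fell by 0.74. *CH1*, which makes chlorophyll b, rose by 1.19.

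The flavonoid and anthocyanin enzymes had the highest share of members called higher among the 29 lists. These enzymes turn phenylalanine into UV-absorbing flavonols and red anthocyanins. Of 18 tested, 13 rose and none fell, with a median log2 fold change of 1.28, and 12 to 14 rose as each library was left out. *DFR*, which commits the pathway to anthocyanins, stood at 3.01, 2.24 and 6.42 CPM in WT and at 107, 58.3 and 35.5 CPM in *dxo1*/*cDXO1* (log2 fold change 4.12 ± 0.486 SE, adjusted p = 0.000791). *LDOX*, the next step, rose from 2.90, 0.886 and 3.84 CPM to 32.5, 15.5 and 9.54 CPM, and the anthocyanin acyltransferase gene *AT5MAT* rose by 2.91. At the head of the pathway the chalcone synthase gene *TT4* rose from 120, 104 and 142 CPM to 696, 565 and 475 CPM (log2 fold change 2.26, adjusted p = 0.000149). *PAL1*, *PAL2* and *C4H*, shared with lignin synthesis, rose by 0.57, 1.3 and 0.70, and the flavonol genes *FLS1* and *UGT78D2* by 1.3 and 1.71. In between, *TT5* gave 0.39 (adjusted p = 0.0865). In each of *DFR*, *LDOX* and *TT4* the *dxo1*/*cDXO1* library numbered 1 was the highest of its group, as for the *LHCB2* genes.

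Of 11 tested regulators of the pathway 3 rose: *TT8*, a bHLH activator of *DFR*, by 1.82 and the repressors *MYBL2* and *LBD37* by 2.2 and 1.07. *MYBL2* was at 1.42, 4.59 and 5.05 CPM in WT and at 14.8, 17.7 and 18 CPM in *dxo1*/*cDXO1*. *GSTF12*, the glutathione S-transferase needed for anthocyanin transport to the vacuole, rose by 2.06. Among 35 tau and phi glutathione S-transferase genes tested, 10 rose and 6 fell (2, 1 and 3 fell without *dxo1*/*cDXO1* replicates 1, 2 and 3). *GSTU22* rose by 1.84, and *GSTF2* fell from 42.0, 30.2 and 33.3 CPM to 11.6, 10.5 and 12.6 CPM (log2 fold change -1.59, adjusted p = 0.000312). One of the 6, *GSTT1*, is a theta-class gene listed under a tau name.

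The bases upstream of *DFR* and *ELIP1*, 2 of the largest rises in these lists, are shown because both hold the G-box CACGTG, a site that light-responsive bZIP and bHLH factors bind. G-boxes and the I-box GATAAG or its complement CTTATC are in capitals. Over 19559 tested protein-coding genes, 8.65% had a G-box and 14.6% an I-box within 250 bases before to 50 bases after the annotated start, on either strand. Among the 13 antenna genes that rose, 2 held a G-box and 4 an I-box, and among the 13 flavonoid genes 2 and 1.
*DFR* upstream, chromosome 5, 17166033 to 17166282, minus strand: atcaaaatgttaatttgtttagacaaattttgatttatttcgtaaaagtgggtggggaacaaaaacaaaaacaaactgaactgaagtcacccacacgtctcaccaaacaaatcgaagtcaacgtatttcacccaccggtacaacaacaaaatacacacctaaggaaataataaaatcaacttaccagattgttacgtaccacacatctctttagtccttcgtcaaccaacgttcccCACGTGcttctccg
*ELIP1* upstream, chromosome 3, 8085670 to 8085919, minus strand: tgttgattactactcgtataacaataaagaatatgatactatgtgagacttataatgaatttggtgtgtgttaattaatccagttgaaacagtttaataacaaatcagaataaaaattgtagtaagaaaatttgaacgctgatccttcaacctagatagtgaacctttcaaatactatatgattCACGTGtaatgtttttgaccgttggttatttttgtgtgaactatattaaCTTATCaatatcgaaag

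Genes of aliphatic glucosinolates, sulphur-rich defence compounds made from methionine, were also among those that rose. Of 21 glucosinolate genes tested, 12 rose and 3 fell; without *dxo1*/*cDXO1* replicate 1, 7 rose and none fell. *CYP79F1*, which converts chain-elongated methionine to its aldoxime, rose from 16.2, 14.6 and 14.1 CPM to 118, 110 and 114 CPM (log2 fold change 2.94 ± 0.101 SE, adjusted p = 6.9e-06). Its tandem neighbour *CYP79F2* fell by 0.55, from 64.6, 48.8 and 57.2 CPM to 35.2, 37.7 and 42.9 CPM. The 2 genes are similar in sequence, and reads may have been divided between them. *MYB29*, an activator of the aliphatic branch, rose by 1.62, and the enzymes *CYP83A1*, *SOT17* and *SOT18* by 0.58, 0.74 and 0.73. In the indolic branch, made from tryptophan, *CYP83B1* and *CYP79B3* fell by 0.72 and 0.36, whereas *CYP79B2* rose by 0.41. *SUR1* and *UGT74B1*, which serve both branches, gave log2 fold changes of -0.01 and -0.03 (adjusted p = 0.945 and 0.856).

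Among genes of iron storage and uptake, all 4 ferritin genes rose. Of 24 tested, 11 rose and 1 fell, with a median of 0.57; the number higher ran from 8 to 11 as each library was left out, and 4 fell without WT replicate 1. *FER1* encodes a plastid ferritin, the shell that stores iron. It stood at 239, 266 and 305 CPM in WT and at 1840, 1610 and 1380 CPM in *dxo1*/*cDXO1*, the largest rise after *LHCB2.2* among genes averaging 100 CPM that were called in every fit leaving out a library (log2 fold change 2.59 ± 0.152 SE, adjusted p = 6.99e-05). All 3 other ferritin genes rose too: *FER2* by 1.03, *FER3* by 1.63 and *FER4* by 0.82. On the uptake side, the root iron transporter gene *IRT1* rose from 1.64, 2.55 and 3.62 CPM to 14.5, 6.12 and 6.61 CPM (log2 fold change 1.81, adjusted p = 0.0134). The vacuolar iron transporter homologue *VTL1* (AT1G21140) rose by 2.14, and *F6'H1* (AT3G13610), for a coumarin that mobilises iron, by 1.37. *BTS*, a ubiquitin ligase that restrains uptake, fell by 0.37. Ferritin genes and *IRT1* both rose. In wild-type plants an excess of iron induces the former and represses the latter. The part of iron supply in these changes was not tested.

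Another abundant gene with a large rise was AT4G23680, for a lipid-binding protein of the polyketide cyclase fold. It stood at 60.0, 57.8 and 69.7 CPM in WT and at 360, 317 and 312 CPM in *dxo1*/*cDXO1*. AT5G38980 and AT2G33855, 2 genes of unknown function named for their small p against *dxo1*/*NTE*, rose by 2.60 and 2.04.

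Among the steepest falls were those of 4 plant defensin genes of class 1, small antifungal peptides that jasmonate and ethylene induce together. *PDF1.3* (AT2G26010) had 3.94, 11.5 and 8.45 CPM in WT and no count in any *dxo1*/*cDXO1* library, at least 52.8-fold lower against a floor of 3 counts per library (adjusted p = 0.00088). *PDF1.2b* went from 2.02, 2.03 and 3.07 CPM to 0, 0.0987 and 0.0505 CPM, at least 15.8-fold lower. *PDF1.2c* and *PDF1.2*, neighbours on chromosome 5, had 1.42 to 3.02 CPM and 3.06 to 6.64 CPM in WT, against at most 0.202 and 0.606 CPM in *dxo1*/*cDXO1* (adjusted p = 0.00328 and 0.00338). All 4 kept their call in each fit that left out a library. They are near-identical copies, and the treatment of reads that match several of them is not stated. Of 11 defensin genes tested these 4 fell, *PDF1.1*, *PDF1.4* and *PDF1.5* of class 1 were not called, and 1 rose. That gene, *LCR68*, belongs to class 2, which is expressed without induction, and was at 42.4, 90.5 and 90.8 CPM in WT and at 138, 133 and 136 CPM in *dxo1*/*cDXO1*. Its call was lost without any one of the *dxo1*/*cDXO1* libraries. The class 2 gene *LCR69* gave a log2 fold change of -0.44 (adjusted p = 0.137; 1.53e-05 without WT replicate 1).

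Upstream bases of the 4 genes that fell are shown with GCC-boxes (GCCGCC, the site of ethylene response factors) and I-boxes in capitals. A GCC-box was found in *PDF1.2b* and *PDF1.2* and in 2.6% of all promoter windows. Each of the 4 held an I-box. The windows also show how alike the copies are outside the coding part.
*PDF1.3* upstream, chromosome 2, 11087030 to 11087279, plus strand: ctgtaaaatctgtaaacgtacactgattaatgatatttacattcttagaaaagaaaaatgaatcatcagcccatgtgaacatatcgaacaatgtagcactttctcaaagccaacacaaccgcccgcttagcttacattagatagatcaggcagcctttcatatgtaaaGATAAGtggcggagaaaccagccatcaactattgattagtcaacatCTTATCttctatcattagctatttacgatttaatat
*PDF1.2b* upstream, chromosome 2, 11088873 to 11089122, plus strand: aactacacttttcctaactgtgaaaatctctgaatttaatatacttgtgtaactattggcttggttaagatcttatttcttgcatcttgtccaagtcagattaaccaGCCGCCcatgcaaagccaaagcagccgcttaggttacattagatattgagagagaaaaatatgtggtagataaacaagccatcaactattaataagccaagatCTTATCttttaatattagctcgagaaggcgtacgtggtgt
*PDF1.2* upstream, chromosome 5, 17907639 to 17907888, minus strand: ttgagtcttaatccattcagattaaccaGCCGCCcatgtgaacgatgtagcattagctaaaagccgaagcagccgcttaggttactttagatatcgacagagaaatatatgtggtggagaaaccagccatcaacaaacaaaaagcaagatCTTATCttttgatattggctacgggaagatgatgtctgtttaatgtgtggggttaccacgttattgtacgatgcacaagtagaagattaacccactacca
*PDF1.2c* upstream, chromosome 5, 17909508 to 17909757, minus strand: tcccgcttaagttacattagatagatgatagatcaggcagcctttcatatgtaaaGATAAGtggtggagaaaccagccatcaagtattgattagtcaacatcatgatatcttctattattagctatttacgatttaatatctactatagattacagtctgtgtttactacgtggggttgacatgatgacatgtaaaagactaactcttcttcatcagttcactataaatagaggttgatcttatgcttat

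Of 25 jasmonate genes outside the defensins tested, none rose and 4 fell (7 fell and 1 rose without WT replicate 1, and 2 fell without any one of the *dxo1*/*cDXO1* libraries). These counts and those of salicylic acid genes below are to be read against 12.1% higher and 11.4% lower over all tested genes. Without WT replicate 1 those shares were 20.6% and 19.5%. *CORI3*, a jasmonate-induced lyase, fell from 42.1, 60.8 and 73.8 CPM to 8.45, 6.17 and 11.6 CPM (log2 fold change -2.74, adjusted p = 0.000351). *LOX2* and *AOC2*, enzymes of jasmonate synthesis, fell by 1.24 and 0.48, and the storage protein gene *VSP1* fell by 1.08. *AOS*, the step between both enzymes, gave 0.13 (adjusted p = 0.599). Of 14 genes of salicylic acid defence *PAD4* rose by 0.83 and *SARD1* fell by 0.98, and each call was lost in at least one fit without a *dxo1*/*cDXO1* library.

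Genes that seedlings switch on in the dark or under sugar starvation fell in most cases. They encode enzymes that break down branched-chain amino acids and trehalose-phosphate synthases that are repressed by sugar. Of 20 tested, 16 fell and none rose, with a median log2 fold change of -1.03, and 14 to 18 fell as each library was left out. *BCAT-2*, the first enzyme of branched-chain amino acid breakdown, stood at 17.3 to 18.5 CPM in WT and at 1.97 to 3.00 CPM in *dxo1*/*cDXO1* (log2 fold change -2.90 ± 0.188 SE, adjusted p = 9.67e-05). Further along the same route *IVD* and *MCCA* fell by 1.3 and 1.35, while *MCCB* gave -0.32 (adjusted p = 0.0847). The senescence marker *SEN1* fell from 88.3, 143 and 120 CPM to 15.3, 25.4 and 25.1 CPM, and *ASN1*, for asparagine synthesis, fell by 2.01. *DIN10*, a raffinose synthase-like gene and the most abundant of the 16, went from 1500, 1330 and 1240 CPM to 692, 703 and 703 CPM. The 4 class II trehalose-phosphate synthase genes *TPS8* to *TPS11* fell by 0.82 to 1.39. The summed level of the list was 3370 to 3990 CPM in WT and 1870 to 1930 CPM in *dxo1*/*cDXO1*.

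Among genes averaging 100 CPM that did not overlap between the groups and were called in every fit leaving out a library, 5 had the largest falls. *FDH*, mitochondrial formate dehydrogenase, fell from 540, 377 and 359 CPM to 65.8, 79.2 and 105 CPM (log2 fold change -2.34 ± 0.210 SE, adjusted p = 0.000261). *MLP328*, of the major latex protein family, fell by 2.18 and the diacylglycerol acyltransferase gene *DGAT3* by 2.06. *BGAL4*, a wall beta-galactosidase, and AT3G15450, an aluminium-induced protein gene, fell by 1.85 and 1.84. AT3G15450 shares 41 bases with a gene on the other strand.

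Low-oxygen and fermentation genes fell too, but with libraries that spread widely. These genes carry plants through oxygen shortage by moving pyruvate to ethanol and alanine. Of 19 tested 10 fell and none rose, with a median log2 fold change of -1.52. The summed level was 1790, 3580 and 4900 CPM in WT and 864, 837 and 1710 CPM in *dxo1*/*cDXO1*, so that WT replicate 1 and *dxo1*/*cDXO1* replicate 3 nearly met. *ADH1*, alcohol dehydrogenase, stood at 293, 794 and 1190 CPM in WT and at 24.3, 19.8 and 204 CPM in *dxo1*/*cDXO1* (log2 fold change -3.19 ± 0.905 SE, adjusted p = 0.0343). *HB1*, a haemoglobin, went from 149, 372 and 462 CPM to 27.8, 29.1 and 121 CPM (adjusted p = 0.0218). AT4G27450, of the same protein family as AT3G15450, fell from 68.4, 324 and 380 CPM to 5.6, 4.64 and 30.5 CPM. The oxygen-sensing cysteine oxidase genes *PCO1* (AT5G15120) and *PCO2* (AT5G39890) fell by 2.04 and 2.42. The number that fell was 18 without WT replicate 1, 12 without *dxo1*/*cDXO1* replicate 3, 6 and 4 without WT replicates 2 and 3, and 1 and 2 without *dxo1*/*cDXO1* replicates 1 and 2. *PPDK* alone kept its call in all of them (198, 113 and 119 CPM in WT; 24.8, 23.2 and 29.8 CPM in *dxo1*/*cDXO1*).

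Several falls concerned single genes of specialised metabolism and development. *MRN1*, marneral synthase, heads a cluster of root triterpene genes on chromosome 5 and stood at 21.4, 15.2 and 16.5 CPM in WT and at 1.12, 0.839 and 1.01 CPM in *dxo1*/*cDXO1* (log2 fold change -4.14 ± 0.216 SE, adjusted p = 4.06e-05). Its cluster partners *CYP705A12* and *CYP71A16*, named after the values were seen, gave -0.36 and -0.41 (adjusted p = 0.215 and 0.287). *FLC*, the repressor of flowering, fell from 1.86, 1.46 and 1.1 CPM to 0.356, 0.0987 and 0.0505 CPM (adjusted p = 0.00711). A noncoding gene covers *FLC* on the opposite strand and had 4 counts in the 6 libraries. The short noncoding RNA gene AT3G06955 went from 5.31, 4.53 and 6.58 CPM to 0, 0.148 and 0.101 CPM, at least 36.3-fold lower. The uncharacterized gene AT5G44578 and the glutaredoxin gene AT3G21460 were at least 11.5-fold and 9.43-fold lower. *DYL1*, a dormancy-associated gene, fell from 202, 184 and 145 CPM to 56.9, 52.1 and 54.7 CPM (log2 fold change -1.68, adjusted p = 0.000157).

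**Figure D3:**
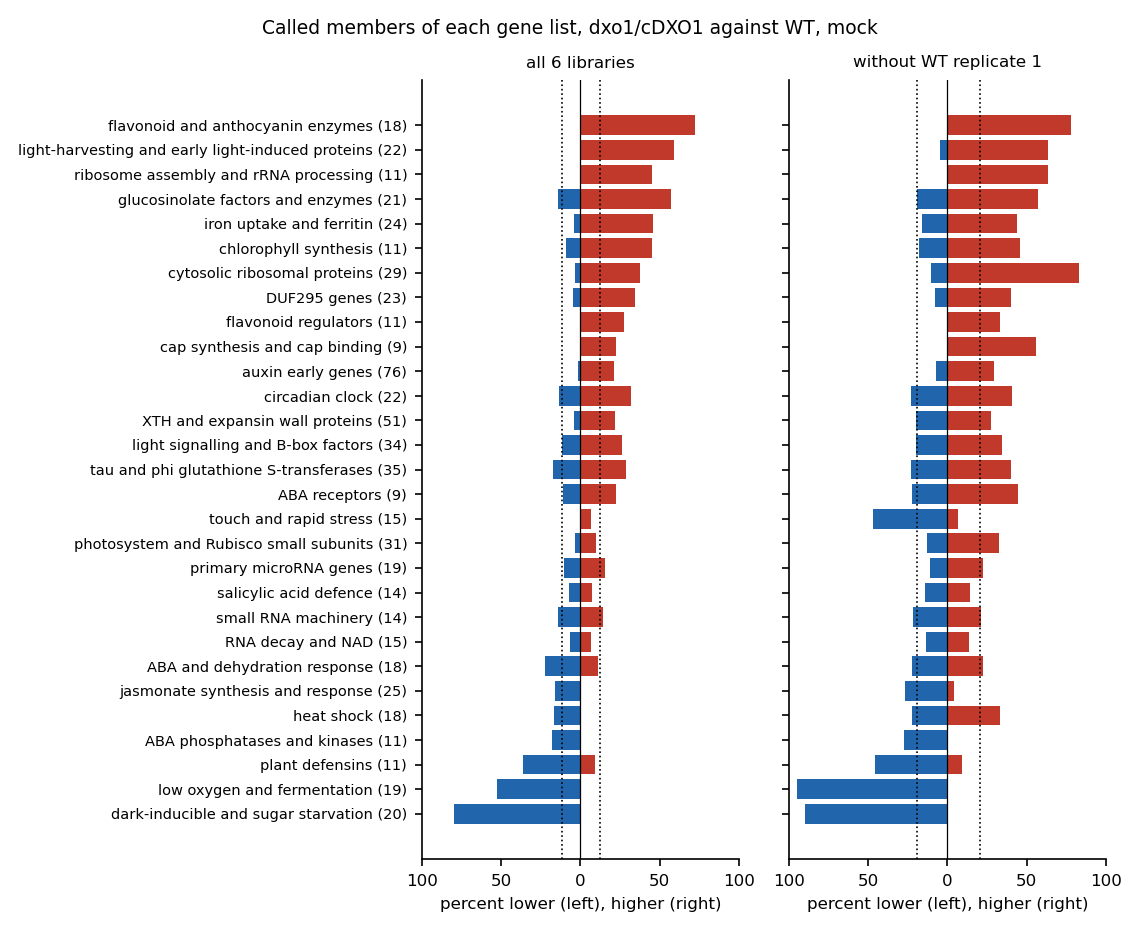
Share of the tested members of each of 29 gene lists that were called higher (red, to the right) or lower (blue, to the left) in *dxo1*/*cDXO1* against WT under mock, in percent, with all 6 libraries and without WT replicate 1; the number tested stands beside each name. Dotted lines mark the shares over all tested genes, 12.1% and 11.4% with 6 libraries and 20.6% and 19.5% without WT replicate 1.

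Among light signalling factors, the share that rose exceeded that over all tested genes, and the share that fell did not stand out. Of 34 tested 9 rose and 4 fell (12 and 7 without WT replicate 1, and 5 and 2 without *dxo1*/*cDXO1* replicate 1). Over all tested genes 12.1% were higher and 11.4% lower, and 20.6% and 19.5% without WT replicate 1. *BBX16* rose from 0.547, 0.417 and 0.0548 CPM to 4.02, 2.71 and 4.49 CPM and *COL5* from 24.1, 26.6 and 26.3 CPM to 105, 91.0 and 83.0 CPM (adjusted p = 0.00223 and 8.97e-05). *BBX16* passed the filter only through its counts in *dxo1*/*cDXO1*. *BBX16* and *COL5* are B-box zinc-finger proteins, as are *BBX28*, *STO* and *LZF1*, which rose by 1.63, 0.98 and 0.76. The growth-promoting factors *PIL6* and *PIF4*, which phytochrome destroys in light, rose by 1.22 and 1.06, and the receptor gene *PHYA* fell by 0.52.

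Of 22 clock genes 7 were higher and 3 lower (9 and 5 without WT replicate 1, and 4 and 1 without *dxo1*/*cDXO1* replicate 1). These counts are to be read against the same shares over all tested genes, and the 3 lower were near theirs. *CDF1*, a morning-phased DOF repressor, rose from 1.48, 1.41 and 1.32 CPM to 11.1, 9.23 and 5.76 CPM (log2 fold change 2.64, adjusted p = 0.000546). *LNK1* (AT5G64170) and *LNK2* (AT3G54500), coactivators of evening genes, rose by 2.0 and 0.82, and *GI* rose by 0.99. *TOC1*, *ZTL* and *ELF4*, evening components, fell by 0.57, 0.74 and 0.46. A G-box stood in 3 of the 7 clock genes that rose. The hour of harvest is not given in the sources used here.

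Of 76 auxin early genes tested, 16 rose and 1 fell, with a median of 0.28, and 9 to 24 rose as each library was left out. *SAUR12* (AT2G21220) rose from 0.383, 0.677 and 0.494 CPM to 1.63, 2.71 and 2.27 CPM and *SAUR74* (AT3G12955) by 2.0. These small proteins promote cell expansion. *IAA2*, a transcriptional repressor that auxin itself induces, rose from 37.9, 35.1 and 37.2 CPM to 68.2, 74.1 and 80.6 CPM (adjusted p = 0.000349). The gene that fell, *DFL1*, encodes an enzyme that conjugates auxin to amino acids. Of 51 genes for xyloglucan-modifying enzymes (XTH) and expansins, 11 rose and 2 fell (14 and 10 without WT replicate 1, and 3 rose without *dxo1*/*cDXO1* replicate 3). Over all tested genes 12.1% were higher and 11.4% lower, and 20.6% and 19.5% without WT replicate 1. The 10 that fell without WT replicate 1 were near that last share. *EXLA2* and *XTH16* rose by 1.21 and 0.95 and *XTH13* fell by 1.28.

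Some genes of the ribosome and of its assembly rose. Of 29 cytosolic ribosomal protein genes 11 rose and 1 fell, with a median of 0.33 (24 and 3 without WT replicate 1, and 3 higher without *dxo1*/*cDXO1* replicate 1). *RPL36aA* (AT3G23390) rose from 112, 134 and 146 CPM to 293, 282 and 260 CPM (log2 fold change 1.1, adjusted p = 0.000646). *RPL3B* fell by 1.49, from 81.2, 40.4 and 37.7 CPM to 19.2, 19.8 and 16.9 CPM, while its paralogue *RP1* gave 0.32 (adjusted p = 0.264). Of 11 genes for ribosome assembly 5 rose and none fell. *FIB1*, for the methyltransferase fibrillarin, rose from 306, 244 and 256 CPM to 585, 505 and 534 CPM (log2 fold change 1.02 ± 0.118 SE, adjusted p = 0.000736). Without *dxo1*/*cDXO1* replicate 1, 2 of these 5 were called. Nucleolin, *NUC-L1*, stood at 1150, 633 and 681 CPM in WT and at 856, 735 and 686 CPM in *dxo1*/*cDXO1* (adjusted p = 0.77).

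The telo-box AAACCCTA, an element of plant ribosomal promoters, was found in 5.48% of all promoter windows, in 9.0% of those of genes called higher and in 2.91% of those called lower. All 5 assembly genes that rose and 5 of the 11 ribosomal protein genes that rose held one. The share among uncalled members of these lists was not counted, so these counts do not link the box to a rise. Upstream bases of the gene with the largest rise in each list show where it lies, with the telo-box or its complement in capitals, and for *FIB1* also an I-box that follows it directly.
*RPL36aA* upstream, chromosome 3, 8375083 to 8375332, plus strand: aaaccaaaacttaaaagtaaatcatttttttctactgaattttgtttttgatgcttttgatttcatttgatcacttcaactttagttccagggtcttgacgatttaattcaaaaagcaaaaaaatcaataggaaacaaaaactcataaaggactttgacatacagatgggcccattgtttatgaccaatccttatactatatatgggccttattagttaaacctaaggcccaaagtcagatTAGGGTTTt
*FIB1* upstream, chromosome 5, 21293897 to 21294146, plus strand: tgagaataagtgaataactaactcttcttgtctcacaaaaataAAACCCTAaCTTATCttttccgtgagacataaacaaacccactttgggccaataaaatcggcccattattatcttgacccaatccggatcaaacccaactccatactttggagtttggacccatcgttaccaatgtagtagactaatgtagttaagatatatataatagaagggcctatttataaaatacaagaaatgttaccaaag

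Calls in the stress lists depended on WT replicate 1. Of 15 touch and rapid stress genes 1 rose and none fell, but 7 fell without WT replicate 1. Over all tested genes 12.1% were higher and 11.4% lower, and 20.6% and 19.5% without that library. *WRKY18* was the gene that rose (28.7, 29.2 and 30.6 CPM in WT; 46.5, 40.1 and 57.6 CPM in *dxo1*/*cDXO1*). Of 18 heat shock genes 3 fell and none rose; without WT replicate 1, 4 fell and 6 rose. The 3 are small heat shock proteins, among them AT1G53540, which fell from 2.84, 2.5 and 2.91 CPM to 0.611, 0.592 and 0.555 CPM (adjusted p = 0.0013). *HSP70* stood at 82.1, 31.5 and 36.4 CPM in WT and at 106, 104 and 61.1 CPM in *dxo1*/*cDXO1* (adjusted p = 0.106; 4.06e-05 without WT replicate 1). In WT replicate 1 the summed heat shock level was 270 CPM, against 150 and 163 CPM in the other WT libraries.

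The ABA pathway was examined in 3 lists, to be read against the 12.1% higher and 11.4% lower over all tested genes. PYR/PYL receptors bind ABA and then block PP2C phosphatases, which releases SnRK2 kinases. Of 9 receptor genes tested *PYL4* and *PYL1* rose by 0.79 and 0.91 and *RCAR3* fell by 0.58, and the call of *PYL1* held only with all libraries or without WT replicate 1. The call of *RCAR3* was lost without *dxo1*/*cDXO1* replicate 1 or replicate 2. Without WT replicate 1, 4 receptor genes were higher and 2 lower. *PYL4* stood at 128, 145 and 166 CPM in WT and at 234, 259 and 261 CPM in *dxo1*/*cDXO1*. Of 11 phosphatase and kinase genes *SNRK2.2* fell from 160, 173 and 159 CPM to 102, 111 and 110 CPM (log2 fold change -0.59, adjusted p = 0.00322) and *HAB2* fell by 0.45. Only 1 of these 2 calls held without WT replicate 2 or without any one of the *dxo1*/*cDXO1* libraries. Among 18 ABA and dehydration response genes 2 rose and 4 fell, with a median of -0.01, and 4 rose and 4 fell without WT replicate 1. *RD20*, a calcium-binding oil-body protein gene, fell from 0.766, 0.886 and 0.877 CPM to 0.0509, 0 and 0.101 CPM, and *DOG1*, the regulator of seed dormancy, rose from 0.328, 0.104 and 0.219 CPM to 1.73, 2.07 and 1.97 CPM (adjusted p = 0.00478 and 0.00164). *RD20* passed the filter only through its counts in WT, and *DOG1* only through those in *dxo1*/*cDXO1*. The transcription factor gene *ABF4* fell by 0.57.

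Genes of the cap and of RNA turnover were examined against the same shares over all tested genes, 12.1% higher and 11.4% lower. Of 9 cap synthesis and cap binding genes 2 rose and none fell; one is *DXO1* and the other *EIF4E*, the cap-binding translation factor (106, 71.5 and 79.9 CPM in WT; 181, 163 and 163 CPM in *dxo1*/*cDXO1*; log2 fold change 0.99 ± 0.144 SE, adjusted p = 0.00211). Its isoform gene *LSP1* gave 0.05 (adjusted p = 0.857). Without WT replicate 1, 5 of the 9 were higher. Of 15 genes of RNA decay and NAD synthesis *AO*, which starts NAD synthesis from aspartate, rose by 0.78 and *QPT*, a later step, fell by 0.51. The call of *AO* was lost without any one of the libraries other than WT replicate 1, and that of *QPT* without any one of the *dxo1*/*cDXO1* libraries. The decapping genes *DCP5* and *VCS* gave 0.00 and -0.15. Of 14 small RNA genes *AGO2* and *AGO4* rose by 0.73 and 0.50 in every fit, and *DCL3* and *DCL4* fell by 0.54 and 0.38 and lost their calls without any one of the libraries other than WT replicate 1.

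Markers of other organs and cell types were examined in 7 lists, to be read against the 12.1% higher and 11.4% lower over all tested genes. With few members tested in each, single calls are not read as a change of an organ or cell type. Seed markers were at or near 0: the 11 summed to at most 1.09 CPM in each of the 6 libraries, 4 had no count in any, and none was tested. Root markers summed to 106, 179 and 193 CPM in WT and to 152, 165 and 173 CPM in *dxo1*/*cDXO1*, with *SCR* higher among 10. Stomatal markers summed to 66.4, 102 and 102 CPM in WT and to 96.0, 104 and 94.7 CPM in *dxo1*/*cDXO1*; *MYB60*, a guard cell factor, rose by 1.37 and *TMM* fell by 0.81. Of 8 vascular markers *CESA4* and *IRX1*, of the secondary wall, fell by 0.44 each. Of 10 root hair markers *EXPA7* and *EXPA18* rose and *RHD2* fell, and the meristem gene *STM* was the one marker called among 5 of the shoot and leaf. The calls of *SCR*, *EXPA7*, *EXPA18*, *RHD2*, *CESA4*, *IRX1*, *TMM* and *STM* were each lost in at least one fit that left out a library, and that of *MYB60* was kept in all 6. WT replicate 1 was the lowest of the 6 libraries for the root, stomatal and root hair sums. The part of tissue composition in the changes of the gene lists was not tested.

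Genes that rose and genes that fell differed in structure. The summed exon length had a median of 1533 bases in genes called higher, 1984 bases in genes called lower and 1780 bases in all tested genes. Genes called higher had a median of 3 exons and 24.6% had a single exon, whereas genes called lower had a median of 7 and 6.6% had a single exon. Over all tested genes the median was 5 and the share 13.9%. In the shortest decile of the genes 16.1% were higher and 7.07% lower, and in the longest decile 4.76% and 18.9%. The same order held without WT replicate 1, with 25.1% and 12.7% in the shortest and 10.4% and 30.9% in the longest decile. The median log2 fold change ran from 0.15 in the shortest to -0.14 in the longest decile. WT replicate 1 itself differed from the other WT libraries by a median log2 ratio of -0.12 in the shortest and 0.05 in the longest decile. Library preparation can also move short against long transcripts, and its part was not tested.

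**Figure D4:**
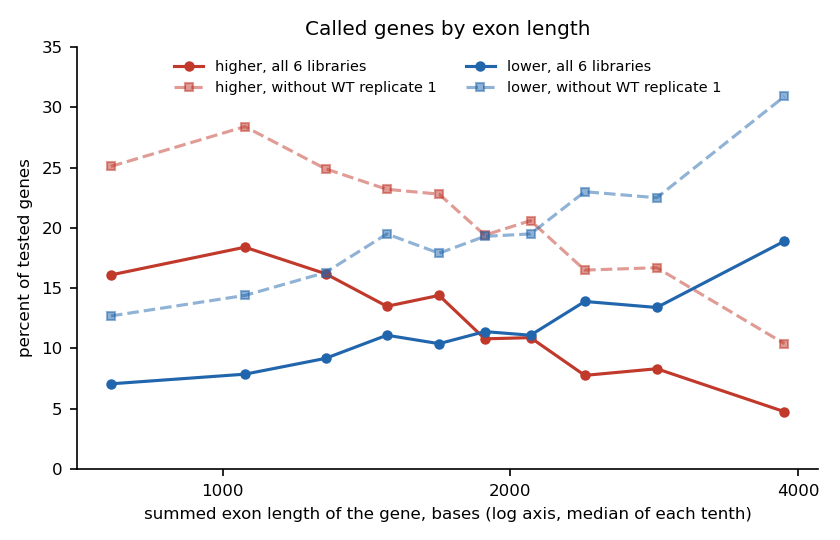
Percent of tested genes called higher (red) or lower (blue) in *dxo1*/*cDXO1* against WT under mock, for deciles of genes ordered by summed exon length (x axis, bases, logarithmic, at the median of each decile). Solid lines use all 6 libraries and dashed lines leave out WT replicate 1; in both, the share higher declines and the share lower grows toward long genes.

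The same 2 genotypes after 3 h of 50 µM ABA provide 6 libraries that the mock contrast did not use. There 4724 genes were higher in *dxo1*/*cDXO1* and 4366 lower, together 45.4% of 20036 tested. Of the 4697 genes called under mock 4660 were tested after ABA, and 3878 (83.2%) were called in the same direction, 15 in the opposite direction and 767 not at all. The share was 87.2% for genes that were higher under mock and 79.0% for those that were lower. In the lists, 18 of 22 antenna genes, and 14 of 18 flavonoid enzymes were higher and none lower, 12 of 25 iron genes were higher and 8 lower, and 15 of 21 dark-inducible genes and 10 of 18 low-oxygen genes were lower and none higher. *DXO1* and AT4G17616 rose by 2.65 and 2.49 and *FER1* rose by 2.23. The WT ABA libraries included none that stood apart like WT mock replicate 1, with a common dispersion of 0.00726 in the 6 ABA libraries.

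A test of the genotype difference itself between mock and ABA, over 12 libraries, called 48 of 20589 genes (0.233%), 18 with a positive and 30 with a negative value; 2063 passed an unadjusted p under 0.05, and DESeq2 called 206. Of 9 ABA receptor genes 4 were among the positive ones. *PYR1* was at 131, 179 and 174 CPM in WT and at 209, 223 and 192 CPM in *dxo1*/*cDXO1* under mock, and after ABA at 37.1, 32.7 and 39.3 CPM and at 110, 106 and 105 CPM. The log2 difference between the genotypes was thus 0.37 (adjusted p = 0.082) under mock and 1.56 after ABA, and the interaction 1.16 (adjusted p = 0.00761). For *PYL4*, *PYL5* and *PYL6* the interactions were 1.08, 1.06 and 3.67; *PYL6* averaged 0.068 CPM in WT after ABA, so its fitted value depends on the prior count. *MRN1* differed less after ABA than under mock, with a fall of 4.14 under mock and 2.02 after ABA (interaction 2.09, adjusted p = 0.00789).

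**Figure D5:**
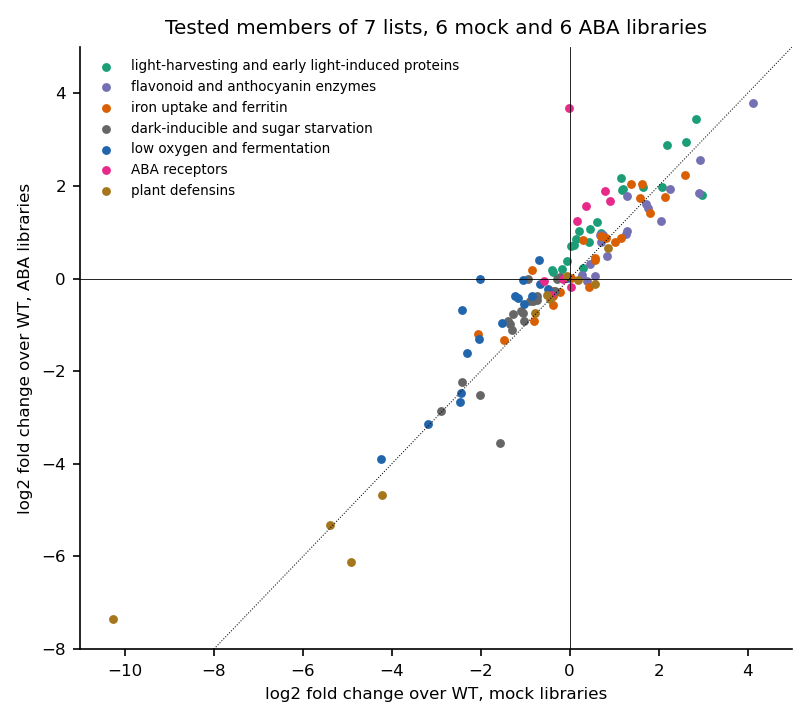
Log2 fold change of *dxo1*/*cDXO1* over WT for the tested members of 7 gene lists, in the 6 mock libraries (x axis) and the 6 ABA libraries (y axis), with the diagonal dotted. Most antenna and flavonoid genes lie in the upper right and most dark-inducible genes and defensins in the lower left, with exceptions such as *CAB1* and *LCR68*, while the 4 ABA receptors with a positive interaction lie above the diagonal; values of genes without counts in a group depend on the prior count.

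Set directly against the *dxo1* mutant under mock, *dxo1*/*cDXO1* differed in few genes. The test called 172 of 20078 genes (0.857%), 108 higher and 64 lower, with 2458 at an unadjusted p under 0.05. Libraries with the same number deviated together in these 2 groups, and with the replicate as a block 1259 genes were called (6.27%), 707 higher and 552 lower. *DXO1* averaged 20.8 CPM in *dxo1* and 222 CPM in *dxo1*/*cDXO1* (log2 fold change 3.42, adjusted p = 2.76e-11). AT4G17616 and *DYL1* followed with 3.09 and 3.24; *DYL1* averaged 5.76 CPM in *dxo1*, 54.6 CPM in *dxo1*/*cDXO1* and 177 CPM in WT. In antenna genes *dxo1*/*cDXO1* was higher in 13 of 22 (20 with the block) and lower in none, and in photosystem core and Rubisco genes in 14 of 31 (26 with the block). *CAB1*, for one, averaged 6010 CPM in *dxo1* and 8090 CPM in *dxo1*/*cDXO1* (log2 fold change 0.43, adjusted p = 0.00978). *MRN1* averaged 3.74 CPM in *dxo1* and 0.99 CPM in *dxo1*/*cDXO1* (log2 fold change -1.91, adjusted p = 0.00443). No flavonoid, dark-inducible, iron or low-oxygen gene was called without the block, at 0 of 18, 20, 24 and 19. With the block, 4 flavonoid and 4 iron genes were higher, 1 flavonoid gene and 12 low-oxygen genes were lower, and 2 dark-inducible genes were higher.

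Against the other transgenic line, *dxo1*/*NTE*, the test called 6601 of 20135 genes (32.8%), 3560 higher and 3041 lower in *dxo1*/*cDXO1*. This contrast shares the *dxo1*/*cDXO1* libraries with that against WT, so the values are given side by side only. *DXO1* counts did not separate the lines (log2 fold change -0.05, adjusted p = 0.63). Antenna genes were higher in 19 of 22 and lower in none, flavonoid enzymes higher in 14 of 18, cytosolic ribosomal proteins higher in 22 of 29 and lower in 1, dark-inducible genes lower in 12 of 20 and defensins lower in 7 of 11 and higher in 2. The 3 genes with the smallest p were AT5G38980, AT2G33855 and *CXE12*, a carboxylesterase, which rose against WT by 2.60, 2.04 and 1.69.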

How the data were processed

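Poly(A) RNA of whole seedlings was sequenced in 30 libraries, of which 6 enter the main contrast. Per the authors, quality control used FastQC 0.11.8 and alignment to TAIR10 used HISAT2 2.2.1; they deposited raw read counts per gene from featureCounts (Subread 2.0.8); annotation release, strand setting and treatment of multi-mapping reads are not given in the sources used here. The deposited gene length column served only for the length comparison.

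Genes were filtered with filterByExpr (minimum count 10, total 15), scaled by TMM and tested with the quasi-likelihood test of edgeR 4.0.16 in R 4.3.3, two-sided, at a Benjamini-Hochberg adjusted p of 0.05 over the tested genes. CPM are counts per 1000000 of the effective library size, the total times its TMM factor. Folds against groups near 0 use a floor of 3 counts per library. Genes near 0 in 1 group passed the filter only through their counts in the other group. The p-values measure the spread between the libraries. Alternatives were DESeq2 1.42.0, RLE scaling, no filter, a fit over all 30 libraries, a log2 fold change over 1, a replicate block and leaving out each library. Deviations of same-numbered *dxo1* and *dxo1*/*cDXO1* libraries correlated at 0.11, 0.138 and 0.234, so that pair is given with a block; this pairing comes from the data, not from the labels. The fit was tested on simulated data.

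Named are the targeted genes, the 10 largest rises and 10 largest falls among genes called in every fit that left out 1 library, with 1 CPM in one group and no overlap of the groups, the 5 largest of each that also average 100 CPM, up to 4 called members of largest change and 2 uncalled members of highest level in each of 29 gene lists and 7 marker lists, and the 3 smallest p of each other contrast. Further list members and neighbouring genes were named after their values were seen. Members and lists were chosen with earlier results of these data known. Motifs were searched on both strands in 19559 windows and, within the gene lists, counted for called members only. All bases were read from the TAIR10.1 genome by RefSeq coordinates. Exon lengths in the table equalled those of that annotation for 99.5% of matched genes.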

Additional observations from a re-analysis of the deposited data

Results flagged for a closer look

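For 11 of the genes examined, the difference between *dxo1*/*cDXO1* and WT was not the same under mock and after ABA by the interaction test of edgeR (adjusted p under 0.05 over all tested genes; values are the log2 difference after ABA minus that under mock, with SE). Among them 4 ABA receptors had larger differences after ABA: *PYL6* (3.67 ± 0.4, adjusted p = 0.00103), *PYR1* (1.16 ± 0.162, adjusted p = 0.00761), *PYL5* (1.06 ± 0.157, adjusted p = 0.00789) and *PYL4* (1.08 ± 0.189, adjusted p = 0.0276). *PYL4* stood at 3.70, 2.88 and 3.91 CPM in WT and at 13.8, 13.9 and 11 CPM in *dxo1*/*cDXO1* after ABA, far below its mock levels in both.

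*ACL* (AT2G23600) had 149, 128 and 136 CPM in WT and 180, 171 and 161 CPM in *dxo1*/*cDXO1* under mock, and 27.4, 28.9 and 29.1 CPM against 92.3, 86.0 and 80.0 CPM after ABA (1.26 ± 0.121, adjusted p = 0.000342). *MRN1* was the gene whose fall was smaller after ABA (2.09 ± 0.305, adjusted p = 0.00789), averaging 23.4 ± 4.87 CPM in WT and 5.71 ± 0.903 CPM in *dxo1*/*cDXO1* (SD, n = 3; edgeR).

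*PYL6* averaged 47.1 CPM in WT and 46.2 CPM in *dxo1*/*cDXO1* under mock, and 0.068 and 0.942 CPM after ABA, so that its fitted value depends on the prior count. *GSTU9*, a glutathione S-transferase gene, averaged 5.69 and 13.2 CPM under mock and 41.3 and 37.1 CPM after ABA (-1.39 ± 0.203, adjusted p = 0.00789).

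In 4 further genes a rise under mock was smaller after ABA, where WT itself was higher. AT3G02480 had 0.109, 0.521 and 0.932 CPM in WT and 11.4, 8.74 and 6.97 CPM in *dxo1*/*cDXO1* under mock, against 53.4, 61.5 and 55.6 CPM and 51.3, 54.7 and 58.0 CPM after ABA (-4.18 ± 0.375, adjusted p = 0.000211). The same held for AT2G47780 (-2.92 ± 0.255, adjusted p = 0.000211), AT4G36700 (-3.60 ± 0.662, adjusted p = 0.0373) and *COL5* (-0.75 ± 0.140, adjusted p = 0.04). AT2G47780 shares 71 bases with a gene on the other strand.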

How the results depend on the processing

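Of 206 named genes 23 changed sign under at least 1 alternative, *NUC-L1* among them (-0.10, and 0.22 without WT replicate 1), and none of the 23 was called in either fit. The 2420 genes higher and 2277 lower became 4286 and 4660 in a fit over all 30 libraries, 820 and 438 with a log2 fold change over 1, and 1228 to 4180 and 879 to 3940 as each library was left out. DESeq2, RLE scaling and no filter stayed within 1.5 times of the main counts, as did the replicate block (2241 higher and 1954 lower). Deviations of same-numbered WT and *dxo1*/*cDXO1* libraries correlated weakly (r of 0.066, -0.00175 and 0.0957), under the threshold of 0.1 set for pairing. WT replicates 1 and 3 correlated best with their own number and WT replicate 2 with another. Under mock, replicate 3 had the highest low-oxygen sum in WT (4900 CPM), *dxo1*/*cDXO1* (1710 CPM), *dxo1* (2340 CPM), *dxo1*/*NTE* (3360 CPM) and *rnmt1-3* (2190 CPM). A shared replicate effect was not tested. The count at the thresholds of the study ran from 1441 to 1681 without one library. After ABA, 9090 calls became 1554 with a log2 fold change over 1 and 7420 to 9224 without one library. The 48 interaction calls became 206 with DESeq2, 293 over all libraries and 23 to 336 without one library, the highest without WT mock replicate 1. The 172 calls against *dxo1* became 470 with DESeq2, 450 with no filter, 99 over all libraries, 1259 with the replicate block, 21 with a log2 fold change over 1 and 31 to 798 without one library, the highest without *dxo1*/*cDXO1* replicate 3. The 6601 calls against *dxo1*/*NTE* became 814 with a log2 fold change over 1 and 4922 to 6122 without one library. The causes of these moves were not tested, except that fewer libraries were fitted where one was left out.

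The p-values rest on 3 libraries a group from one experiment, counts near 0 limit the folds of the largest rises and falls to lower bounds, and copies of gene families share reads to an unknown degree.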

Other observations

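Further gene families, grouped by their annotation and chosen after their values were seen, also held called members under mock, to be read against the 12.1% higher and 11.4% lower over all tested genes (20.6% and 19.5% without WT replicate 1). Sulfotransferase genes rose in 7 of 9 and fell in none (8 and none without WT replicate 1). *SOT12*, which acts on salicylic acid and brassinosteroids, averaged 28.9 ± 6.68 CPM in WT and 84.7 ± 14.5 CPM in *dxo1*/*cDXO1* (SD, n = 3; edgeR log2 fold change 1.56, adjusted p = 0.000785). Acyltransferases of the HXXXD type rose in 17 of 46 and fell in none (19 and 1 without WT replicate 1). Of 28 histone genes 11 rose and 2 fell (16 and 2 without WT replicate 1), and AT3G53650, a histone H2B, averaged 10.3 ± 2.61 CPM and 39.8 ± 2.06 CPM (SD, n = 3; edgeR log2 fold change 1.97, adjusted p = 0.000243). In the poly(A)-binding protein partners with a CTC-interacting domain, 6 of 10 fell and none rose with or without WT replicate 1, among them *CID12* (96.1 ± 16.2 CPM and 52.8 ± 2.03 CPM, SD, n = 3; edgeR log2 fold change -0.85, adjusted p = 0.00224).

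Cytochrome P450 genes of the CYP71B group fell in 10 of 17 and rose in 2, with the same counts without WT replicate 1; *CYP71B22* fell by 2.13 and *CYP71B13* rose by 1.89. Beta-glucosidase genes fell in 6 of 20 and pfkB-like carbohydrate kinase genes in 7 of 15, with none higher in either; without WT replicate 1, 11 and 7 fell and 1 of each rose. Among triterpene synthase genes other than *MRN1*, *PEN1* rose by 0.45, the thalianol pathway gene *CYP708A2* fell by 1.06, and *THAS1* gave -0.32 (edgeR adjusted p = 0.113). *BARS1* was called higher, at 0.109, 0.0521 and 0.165 CPM in WT and 0.815, 0.642 and 0.757 CPM in *dxo1*/*cDXO1*. It had at most 3 counts in each WT library and passed the filter only through *dxo1*/*cDXO1*, so no fitted fold change is given.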
